A study of Mus musculus with 12 samples.

Results

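Zfp is the symbol under which many mouse zinc finger genes are named. The members described here were chosen by their measured values, as genes whose symbol is Zfp followed by digits only and that had at least 10 raw counts in every one of the 12 oocyte pools, with 1 further symbol left out. This gave 265 members of 358 matching genes, among 24562 genes in the count table. The other 93 genes stayed under the minimum in at least 1 pool, 8 of them with 0 counts in all pools and 26 of them never reaching 10 counts anywhere. The minimum in every pool removes genes that came close to 0 in any cohort, so the members hold few genes that were switched off or on. Just inside the threshold were Zfp1, Zfp42, Zfp580 and Zfp689, each with a lowest count of 10, and just outside it were Zfp810 with 9 and Zfp85 and Zfp617 with 8.

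RNA was sequenced from pools of 18 to 45 oocytes of CD-1 mice. The oocytes came from antral follicles of ovaries that had received no hormone stimulation, and each cohort had 3 pools. The cohorts were postnatal day (PND) 13, PND 16 from small animals, PND 16 from large animals, and PND 40, after puberty. PND 13 and PND 16 small were taken by the study as non-competent for meiosis, and PND 16 large and PND 40 as competent; small and large refer to body weight, and no cohort carried a transgene or treatment. The totals ran from 17671193 to 27418358 counts per pool, and the members took 1.10% to 1.29% of them. All 13 oocyte markers, among them Zp1 to Zp3, Gdf9 and Bmp15, were detected in every pool. The summed level of 12 granulosa cell markers was 475 and 543 CPM, counts scaled by library size, in PND 13 replicates 1 and 3 and 517 CPM in PND 16 small replicate 2, and 130 to 255 CPM in the other 9 pools. Of these markers Inha and Gja1 were 97.1 to 143 CPM and 93.2 to 128 CPM in those 3 pools and at most 20.7 and 35.0 CPM elsewhere. Kitl, Cyp19a1 and Nr5a2 did not set those pools apart. Kitl was highest in PND 16 small replicate 3 (53.6 CPM, against 21.3 CPM in replicate 2). Cyp19a1 was highest in PND 16 large replicate 3 (24.3 CPM, against 14.5 CPM in PND 13 replicate 3). Nr5a2 was 118 CPM in PND 16 small replicate 2, under the 127 and 134 CPM of the other PND 16 small pools. It made up 87.9 of the 130 CPM in PND 13 replicate 2. The hemoglobin markers were at 0 in all pools and Cyp17a1 was at most 0.246 CPM. Nothing in the labels ties a pool to particular animals, so p-values measure only the spread between these pools. In bulk RNA, fewer cells of a type and less RNA per cell cannot be told apart.

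Zfp proteins carry C2H2 zinc fingers, short loops that hold a zinc ion between cysteine and histidine residues and read DNA bases. Many also carry a KRAB box, which recruits the corepressor TRIM28 and, through it, the histone methyltransferase SETDB1 and heterochromatin proteins, and these genes are known for silencing retroelements and for keeping imprints. Zfp genes without the KRAB box include activators, chromatin adaptors and RNA-binding proteins. In growing oocytes transcription declines as the oocyte nears full size, and the stored transcripts that remain are used in maturation and in the early embryo.

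From the coding sequences in the GENCODE M21 annotation, 148 members had a KRAB box in at least 1 of their proteins, 116 had none, and 1 had no protein sequence in the annotation. The box was scored by identities with its most common sequence over 38 residues. KRAB members scored 17 or more and the others at most 13, so a member with a divergent box counts as having none. The median number of C2H2 fingers in the longest protein was 12 in the KRAB members and 7 in those without. The pattern searched was 2 cysteines and 2 histidines at the usual spacing, and it found none in 6 members, among them Zfp957, Zfp750, Zfp703 and Zfp36. Chromosome 7 held 68 members, chromosome 17 held 34, chromosome 8 held 20 and chromosome 13 held 19. Because KRAB genes arose by duplication, 50-base stretches were compared between genes, 50 bases being the read length. In 41 members at least 10% of the stretches were also in another gene, 35 of them KRAB members, and the counts of those genes are less certain.

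The sequence before the transcription start was available from RefSeq (GRCm38.p6) for 221 members, and the start listed first for each gene was used. The motifs were searched on both strands in the 250 bases before the start, and a match is a description of the letters only. The CCAAT box (CCAAT) was in 50.2% of member promoters and 34.5% of all 27025 promoters. The GC box (GGGCGG) was in 46.2% and 32.9%, the ETS core (CCGGAAG) in 16.3% and 7.05%, and the TATA box (TATAAA) in 4.98% and 13.0%. The 27025 promoters were not limited to genes with the minimum count. The members were thus not set against genes of like expression, and these differences cannot be read as particular to Zfp genes. The KRAB members held the GC box in 36.8% of promoters and the others in 59.8%, with medians of 8 and 14 CpG dinucleotides. Members called lower at PND 40 than at PND 13 held the CCAAT box in 52.0% and the rest in 49.7%. They held the ETS core in 8% (4 of 50) and the rest in 18.7% (32 of 171), which was not tested. The first pair below shows the 2 called members with the largest decreases between PND 13 and PND 40, and the second pair the 2 called members with the largest increases.
Zfp768: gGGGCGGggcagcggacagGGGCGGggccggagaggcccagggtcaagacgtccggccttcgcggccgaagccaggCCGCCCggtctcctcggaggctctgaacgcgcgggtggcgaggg
Zfp668: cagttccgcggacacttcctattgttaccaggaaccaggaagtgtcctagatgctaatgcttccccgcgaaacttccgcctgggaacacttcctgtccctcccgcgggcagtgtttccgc
Zfp820: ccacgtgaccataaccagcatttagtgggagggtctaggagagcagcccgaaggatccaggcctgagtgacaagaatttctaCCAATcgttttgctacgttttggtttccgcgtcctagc
Zfp947: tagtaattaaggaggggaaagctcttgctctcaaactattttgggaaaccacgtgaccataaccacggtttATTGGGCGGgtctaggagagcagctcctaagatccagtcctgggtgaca

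Each line gives the 120 bases before the start listed first, 5′ to 3′ on the strand of the gene. Capitals mark a CCAAT box, GC box, ETS core or TATA box on either strand. The Zfp768 stretch is at chr7:127345315-127345434 and the Zfp668 stretch at chr7:127876837-127876956, both on the minus strand. The Zfp820 stretch is at chr17:21845760-21845879 and the Zfp947 stretch at chr17:22165978-22166097, also on the minus strand. The Zfp947 stretch lies inside the annotated gene, whose outer end is at 22166172, so it precedes an inner start. In Zfp947 the CCAAT and GC boxes overlap. Zfp768 held 3 GC boxes and Zfp668 none of the motifs as spelled above. The Zfp668 stretch does hold ggaag and cttcc, which are parts of the ETS core and of its reverse complement. Zfp820 and Zfp947, which are KRAB genes on the same chromosome, shared a run of 17 bases, ccacgtgaccataacca, and another as long, gggtctaggagagcagc. No other pair of the stretches printed here shared a run of more than 8 bases. The next stretches show members with an ETS core, the motif with the largest ratio to all promoters of the 4 named above.
Zfp60: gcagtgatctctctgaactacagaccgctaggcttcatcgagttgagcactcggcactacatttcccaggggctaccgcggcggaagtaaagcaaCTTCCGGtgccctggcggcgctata
Zfp951: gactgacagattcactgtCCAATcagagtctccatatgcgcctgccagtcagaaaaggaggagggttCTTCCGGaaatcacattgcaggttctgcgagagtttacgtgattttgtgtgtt

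The Zfp60 stretch is at chr7:27731289-27731408 on the plus strand and the Zfp951 stretch at chr5:104860028-104860147 on the minus strand. The Zfp951 stretch also lies inside the annotated gene, whose outer end is at 104860157. Both genes carry a KRAB box and both rose in a comparison given below.

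Levels of the members were compared per length, as mean CPM over all pools divided by the kilobases of the longest annotated transcript. The median was 4.51 CPM per kb, against 8.27 CPM per kb for the 10972 genes with at least 10 counts in every pool and a length. The range was 0.311 to 133 CPM per kb. The highest was Zfp655, a KRAB gene, at 133 CPM per kb. Next were Zfp592, a subunit of a chromatin complex with ZMYND8, at 95.7 CPM per kb, and Zfp750, an epidermal differentiation factor, at 92.0 CPM per kb. Zfp664 followed with 90.3, Zfp296 with 90.3, Zfp212 with 86.6, Zfp957 with 86.0 and Zfp131 with 66.9 CPM per kb. Of these 8 abundant members only Zfp957 was called in PND 40 vs. PND 13, where it was higher.

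PND 40 was first compared with PND 13, the widest step in age. A gene was called changed at an adjusted p of at most 0.05 and a fold change of at least 1.5, the criteria of the study, in the quasi-likelihood test of edgeR, with p adjusted by the Benjamini-Hochberg method over all 13943 genes tested. Of the 265 members 61 were called lower at PND 40 and 8 higher. Over all genes tested 12.6% were called lower and 6.31% higher, and among the 11247 genes with at least 10 counts in every pool 13.8% and 6.46%. The members' shares were 23.0% and 3.02%. Their median log2 fold change was -0.20, against 0.03 for genes with the same minimum count, and 63.4% lay below 0. Called or not, 107 members (40.4%) had every PND 40 pool under every PND 13 pool and 46 (17.4%) every PND 40 pool above, against 24.5% and 26.3% of all genes tested.

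**Figure D1:**
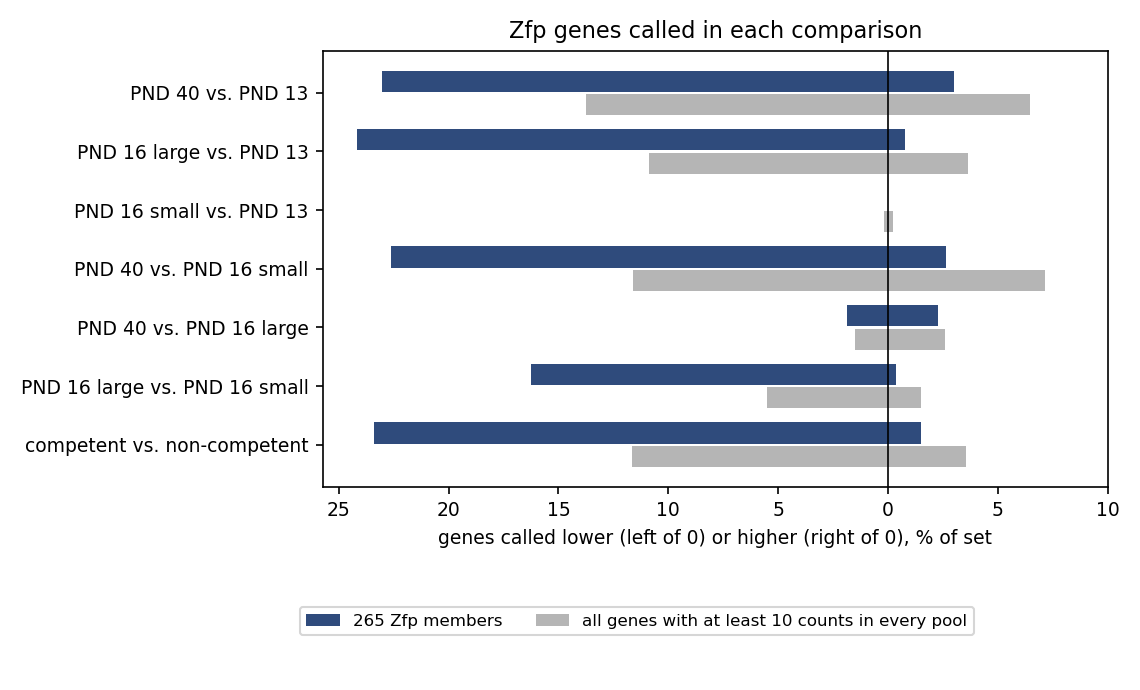
Share of genes called lower (left of 0) or higher (right of 0), in percent of the set, in each of the 7 comparisons; dark bars are the 265 Zfp members and grey bars all genes with at least 10 counts in every pool. In PND 40 vs. PND 13 the members reached 23.0% lower and 3.02% higher, and the grey bars 13.8% and 6.46%.

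Zfp768 fell most among the called members. It was 9.27, 11.6 and 14.5 CPM at PND 13 and 9.33, 5.88 and 7.18 CPM at PND 16 small. It was 1.88, 2.37 and 2.79 CPM at PND 16 large and 2.40, 2.03 and 2.61 CPM at PND 40. All 6 non-competent pools lay above all 6 competent pools, and the levels of the competent cohorts overlapped. The log2 fold change of PND 40 vs. PND 13 was -2.33 (SE 0.26, edgeR adjusted p = 4.95e-05).

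Zfp281, a C2H2 factor that binds GC-rich promoters and restrains Nanog in embryonic stem cells, was 25.7, 31.2 and 39.1 CPM at PND 13. At PND 16 small it was 34.7, 15.8 and 30.5 CPM, with the lowest value in the granulosa-rich replicate 2. It was 5.97, 6.98 and 9.16 CPM at PND 16 large and 7.42, 8.16 and 6.91 CPM at PND 40. The groups of competent and non-competent pools did not overlap for this gene either, and the log2 fold change of PND 40 vs. PND 13 was -2.09 (SE 0.27, edgeR adjusted p = 0.000128).

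Zfp707, a KRAB gene on chromosome 15, was the most abundant of the 8 largest decreases on the CPM scale. It was 60.7, 62.2 and 75.03 CPM at PND 13 and 68.8, 39.7 and 63.1 CPM at PND 16 small. The competent pools held 14.4, 26.3 and 22.9 CPM at PND 16 large and 13.5, 15.7 and 16.2 CPM at PND 40. Its decrease from PND 13 to PND 40 was 4.35-fold (edgeR adjusted p = 6.08e-05).

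Zfp622, a factor in the maturation of the large ribosomal subunit, was 7.59, 7.97 and 9.70 CPM at PND 13, 7.82, 5.74 and 5.87 CPM at PND 16 small, 3.03, 3.55 and 3.503 CPM at PND 16 large, and 1.24, 2.31 and 2.61 CPM at PND 40. Its cohorts stepped down in that order of means, with overlap only between the first 2. The log2 fold change of PND 40 vs. PND 13 was -2.03 (SE 0.28, edgeR adjusted p = 0.000177).

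Zfp395, a single-finger protein, went from 36.4 ± 7.46 CPM (SD, n = 3) at PND 13 to 8.78 ± 1.09 CPM at PND 40, and Zfp668 from 8.46 ± 0.939 to 1.83 ± 0.525 CPM. Zfp446 went from 6.43 ± 1.78 to 1.47 ± 0.420 CPM and Zfp689, a KRAB gene just inside the count threshold, from 4.23 ± 0.368 to 1.14 ± 0.167 CPM. Each of these 4 was lower at PND 40 in all 3 pools than in any PND 13 pool. The Zfp689 call was lost without the 3 pools of high granulosa markers. Of the 8 called members with the largest decreases 2 scored as having a KRAB box, and Zfp446 fell short of the score with 13 identities. Of the 8, 4 lie on chromosome 7, which holds 68 of all members.

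The 8 members called higher at PND 40 were Zfp820, Zfp947, Zfp791, Zfp735, Zfp583, Zfp616, Zfp957 and Zfp60. Of these 7 carry a KRAB box, as do 148 of all 265 members. Zfp820 was 6.26, 6.33 and 4.22 CPM at PND 13 and 11.9, 4.598 and 5.40 CPM at PND 16 small. It was 15.1, 9.51 and 8.48 CPM at PND 16 large and 20.6, 17.9 and 15.8 CPM at PND 40. The PND 40 pools lay above all others, and 1 PND 16 small pool stood within the PND 16 large range. The log2 fold change of PND 40 vs. PND 13 was 1.69 (SE 0.34, edgeR adjusted p = 0.00232).

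Zfp735 was 51.8, 80.4 and 48.1 CPM at PND 13 and 103, 108 and 102 CPM at PND 40, with 51.4 to 78.2 CPM in the 6 PND 16 pools. Zfp616 was 170, 181 and 152 CPM at PND 13 and 274, 286 and 280 CPM at PND 40. In Zfp60 the values were 131, 133 and 125 CPM at PND 13, against 194, 198 and 201 CPM at PND 40. All 3 were higher in every PND 40 pool than in any PND 13 pool, by 1.74-fold, 1.67-fold and 1.52-fold (edgeR adjusted p = 0.00739, 0.00151 and 0.000152). Zfp616 at PND 16 small reached 298 CPM in 1 pool, above all PND 40 pools. The Zfp60 call, close to the fold criterion, was lost without PND 13 replicate 3, under total-count scaling and when only the pools compared were fitted.

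Zfp947 was the least certain increase. Its values were 2.58, 2.11 and 1.43 CPM at PND 13 and 3.47, 3.46 and 5.95 CPM at PND 40 (log2 fold change 1.08, SE 0.38, edgeR adjusted p = 0.0434), and 20.0% of its 50-base stretches are also in another gene. Its call was lost in 5 of 6 fits that left out 1 pool. The rises of Zfp791 (1.74-fold), Zfp583 (1.73-fold) and Zfp957 (1.57-fold) rested on PND 13 means of 48.4, 7.86 and 187 CPM and PND 40 means of 84.2, 13.6 and 292 CPM. The Zfp583 call was lost in 3 of 6 fits without 1 pool (PND 13 replicate 1, PND 40 replicate 1 or 3), and the Zfp957 call without PND 13 replicate 3 and under total-count scaling. Without the 3 pools of high granulosa markers, which leaves 1 PND 13 pool, all the rises described here were lost as calls other than that of Zfp616.

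**Figure D2:**
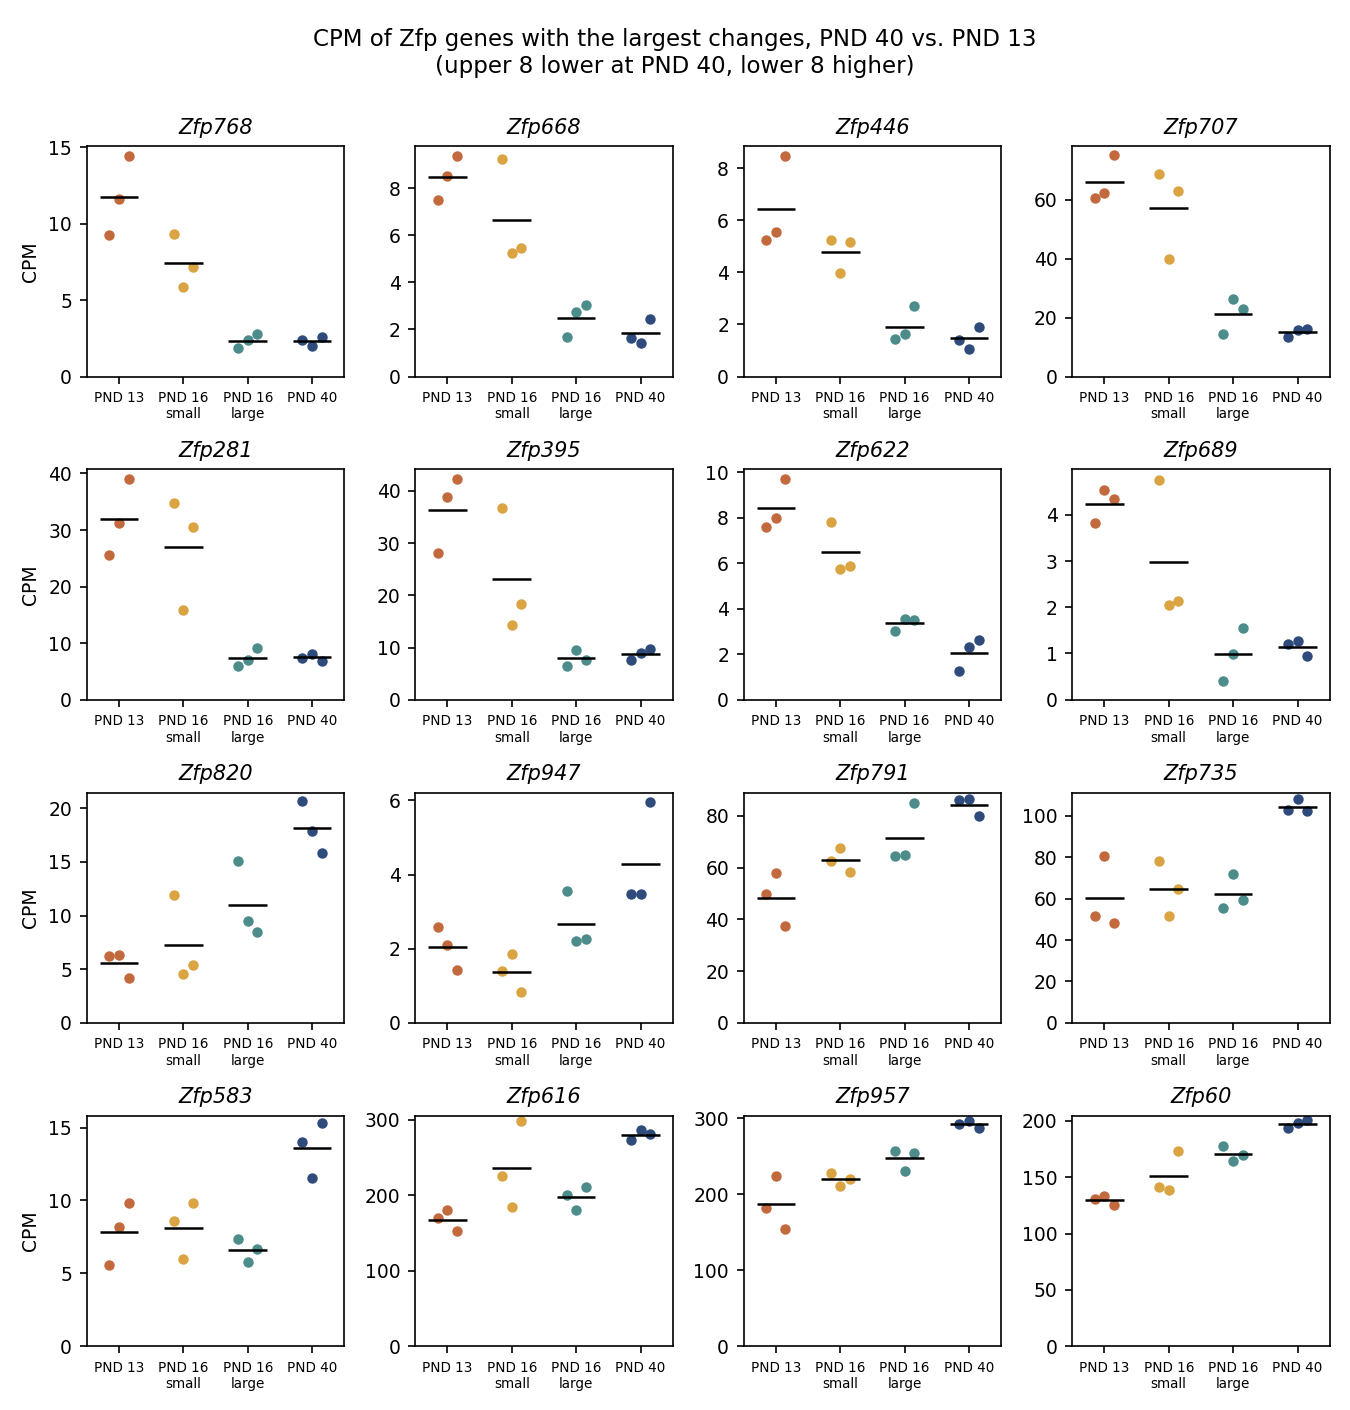
CPM in each of the 12 pools (points, 3 per cohort) and cohort mean (line) of the 16 Zfp genes with the largest called changes in PND 40 vs. PND 13; each panel has its own linear axis starting at 0. In the upper 8 panels the PND 16 large and PND 40 pools lie low, as in Zfp768 at 1.88 to 2.79 CPM. In Zfp622 the PND 16 large pools (3.03 to 3.55 CPM) lie above the PND 40 pools (1.24 to 2.61 CPM). In the lower 8 panels the PND 40 pools lie high, as in Zfp735 at 102 to 108 CPM.

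Zfp266, a KRAB gene, had the most negative log2 fold change of all members in this comparison, -2.36 (SE 0.94), and was not called (edgeR adjusted p = 0.0788). It was 10.1, 0.782 and 11.8 CPM at PND 13, 1.22, 8.72 and 1.90 CPM at PND 16 small, and 1.07 to 3.43 CPM in the competent pools. The 3 high values are those of the pools with high granulosa markers. The part of granulosa RNA in it was not tested. Zfp266 was chosen for mention after its values were seen.

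Next, PND 16 large was compared with PND 13. Here 64 members were called lower and 2 higher, against 9.8% and 3.52% of all genes tested, and the members' median log2 fold change was -0.27, against 0.00 for genes with the same minimum count. All PND 16 large pools lay under all PND 13 pools in 99 members (37.4%) and above them in 28 (10.6%), against 22.8% and 22.6% of all genes tested. Zfp768 (log2 fold change -2.33), Zfp395 (-2.20), Zfp281 (-2.12) and Zfp689 (-2.10) fell most among the called members. The members higher at PND 16 large were Zfp820 (log2 fold change 0.98, SE 0.33, edgeR adjusted p = 0.0485) and Zfp846, a KRAB gene that went from 11.5 ± 1.56 to 17.8 ± 3.12 CPM (edgeR adjusted p = 0.0142). The Zfp820 call was lost in all 6 fits without 1 pool and the Zfp846 call in 2 of them, without PND 13 replicate 2 and without PND 16 large replicate 1. Both were also lost under total-count scaling and without the 3 pools of high granulosa markers.

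No member was called in PND 16 small vs. PND 13, the non-competent cohorts, where 0.194% of all genes tested were lower and 0.179% higher. At an unadjusted p under 0.05 there were 48 of the 265 members, beside 2684 of the 13943 genes tested. DESeq2 called 9 members, of which 4 were higher. Without PND 16 small replicate 1 edgeR called 24, of which 19 were lower. The shares of all genes called by DESeq2 and in that fit are not given here. Those counts thus cannot be read as particular to Zfp genes. The median log2 fold change of the members was -0.01, with 50.9% below 0.

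Within PND 16, where age is shared and body weight differs, 43 members were called lower in large than in small animals and 1 higher, against 4.76% and 1.43% of all genes tested. The median log2 fold change of the members was -0.29 and 76.6% lay below 0, against 50.2% of genes with the same minimum count. Leaving out PND 16 large replicate 1 or 2 gave 20 and 25 calls in place of 44. Zfp281 (log2 fold change -1.87, SE 0.27), Zfp800 (-1.86, SE 0.25), Zfp367 (-1.72, SE 0.25) and Zfp768 (-1.67, SE 0.26) fell most among the called members, with edgeR adjusted p from 0.00188 to 0.00259. Zfp800 was 4.96, 5.59 and 7.36 CPM in small and 1.60, 1.54 and 1.79 CPM in large, 3.62-fold lower with no overlap. Zfp367 was 16.2, 11.3 and 16.5 CPM in small and 2.82, 5.09 and 5.41 CPM in large, again without overlap.

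Zfp951, the KRAB gene with the ETS core printed above, was the only member called higher in PND 16 large than in PND 16 small. It was 52.9, 40.4 and 61.8 CPM in small and 104, 102 and 86.9 CPM in large (log2 fold change 0.92, SE 0.14, edgeR adjusted p = 0.00272). At PND 13 it was 89.6, 79.1 and 74.7 CPM, so PND 16 small was the low cohort.

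PND 40 vs. PND 16 small gave 60 members lower and 7 higher, against 10.3% and 6.89% of all genes tested. Zfp707 (3.77-fold), Zfp668 (3.62-fold), Zfp281 (3.597-fold) and Zfp367 (3.59-fold) fell most among the called members, with edgeR adjusted p from 0.000142 to 0.000854. Zfp947 (3.13-fold), Zfp820 (2.48-fold), Zfp951 (2.23-fold) and Zfp583 (1.68-fold) rose most among the called members, with edgeR adjusted p from 0.000136 to 0.0304. Zfp583 lost its call in 3 of 6 fits without 1 pool.

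The comparisons of PND 40 with PND 13 and of PND 16 large with PND 16 small share no pool. Of the members called lower 28 were in both, which is 45.9% of the 61 and 65.1% of the 43. The other pair without a shared pool sets PND 16 large against PND 13, and PND 40 against PND 16 small, and 32 were in both, 50% of the 64 and 53.3% of the 60. In neither pair was a member called in opposite directions. The matching shares over all genes were not worked out, so these overlaps cannot be read as particular to Zfp genes. All cohorts were fitted in the same model, in which the spread of a gene was estimated from all pools together. The calls within a pair were thus not independent, although no pool was shared.

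The competent cohorts differed from each other in few genes, members or not. In PND 40 vs. PND 16 large 6 members (2.26%) were called higher and 5 (1.89%) lower, near the 2.34% and 1.32% of all genes tested. The members' median log2 fold change was 0.09, and 41.5% lay below 0, against 50.6% of genes with the same minimum count. All 6 that rose carry a KRAB box, as do 148 of all 265 members. They were Zfp809, Zfp82, Zfp583, Zfp90, Zfp169 and Zfp735.

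Zfp809, which silences retroviruses by binding their primer binding site, was 3.53, 4.14 and 2.87 CPM at PND 13 and 4.96, 1.52 and 2.91 CPM at PND 16 small. It was 1.76, 1.26 and 0.557 CPM at PND 16 large and 5.32, 2.91 and 4.52 CPM at PND 40. PND 16 large was the low cohort, and PND 40 was back within the range of the non-competent pools apart from 1 pool above it. The log2 fold change of PND 40 vs. PND 16 large was 1.83 (SE 0.47, edgeR adjusted p = 0.0350), and that of PND 16 large vs. PND 13 was -1.56 (SE 0.47, edgeR adjusted p = 0.0271). At about 1 CPM the first of these calls was lost in 5 of 6 fits without 1 pool.

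Zfp90 was 11.3, 8.92 and 12.5 CPM at PND 16 large and 20.8, 25.1 and 21.2 CPM at PND 40 (2.05-fold, edgeR adjusted p = 0.0161). Zfp169 went from 11.8 ± 1.28 to 20.3 ± 1.35 CPM and Zfp583 from 6.60 ± 0.805 to 13.6 ± 1.92 CPM. Zfp82 went from 1.77 ± 0.318 to 4.83 ± 1.04 CPM and shares 41.4% of its stretches with another gene. In each of these 4 the PND 40 pools were all above the PND 16 large pools.

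The 5 that fell from PND 16 large to PND 40 were Zfp521, Zfp763, Zfp523, Zfp317 and Zfp748. Zfp521, which antagonises the factor EBF1 in blood and mesenchymal cells, was 18.1, 13.3 and 11.5 CPM at PND 16 large and 5.28, 5.38 and 8.75 CPM at PND 40, with 9.20 to 15.7 CPM in the non-competent pools. Zfp523, a relative of the promoter factor Zfp143, was 15.5, 15.1 and 17.2 CPM at PND 16 large and 7.55, 8.32 and 9.63 CPM at PND 40 (1.87-fold, edgeR adjusted p = 0.00460). For Zfp521, Zfp523 and Zfp763 all PND 40 pools lay under all 9 other pools. Of the 4 largest changes in each direction only that of Zfp523 kept its call in every fit without 1 pool.

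When pools were joined as competent and non-competent, 62 members were called lower in competent oocytes and 4 higher, against 11.2% and 3.78% of all genes tested. The members' median log2 fold change was -0.26 and 69.8% lay below 0. Called or not, 48 members (18.1%) had all 6 non-competent pools above every competent pool and 8 (3.02%) had them all below, against 7.81% and 6.89% of all genes tested. Of the 62 that fell, 40 were among those 48. In 22 of the 62 the mean of the 3 pools with high granulosa markers exceeded that of the other 3 non-competent pools, and in 49 each of those other 3 pools lay above every competent pool. The 62 were called lower from these same pools, which favours such an order, and the matching shares over all genes were not worked out. The part of granulosa RNA in these decreases was not tested. Without the 3 pools of high granulosa markers 53 members were called lower and 2 higher. The shares of all genes called in that fit are not given here, so these counts describe the members only. The 8 largest decreases were those of Zfp768 (4.10-fold), Zfp281 (3.96-fold), Zfp395 (3.57-fold), Zfp668 (3.51-fold), Zfp367 (3.39-fold), Zfp707 (3.39-fold), Zfp689 (3.38-fold) and Zfp446 (3.31-fold), with edgeR adjusted p from 1.67e-05 to 0.00123.

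The 4 that were higher in competent oocytes were Zfp618, Zfp820, Zfp947 and Zfp951. Zfp618, which has no KRAB box, was 13.3, 8.79 and 8.43 CPM at PND 13 and 11.3, 1.14 and 0.949 CPM at PND 16 small. It was 21.4, 23.2 and 20.0 CPM at PND 16 large and 17.7, 19.4 and 19.7 CPM at PND 40. The groups did not overlap, but 2 PND 16 small pools lay far under the third. The log2 fold change was 1.46 (SE 0.51, edgeR adjusted p = 0.0480), and the call was lost in 8 of 12 fits without 1 pool. In the other three, pools of the groups overlapped.

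Over all 265 members the lowest cohort mean of log2 CPM was that of PND 16 large in 101, of PND 40 in 82, of PND 13 in 47 and of PND 16 small in 35. PND 16 large was thus lowest in 38.1% of members and in 18.6% of genes with the same minimum count. It was the highest cohort in 22 members, or 8.30%, against 21.1%. Among KRAB members it was lowest in 67 of 148 (45.3%), and among those without the box in 34 of 116 (29.3%). These are descriptions of cohort means and carry no test.

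**Figure D3:**
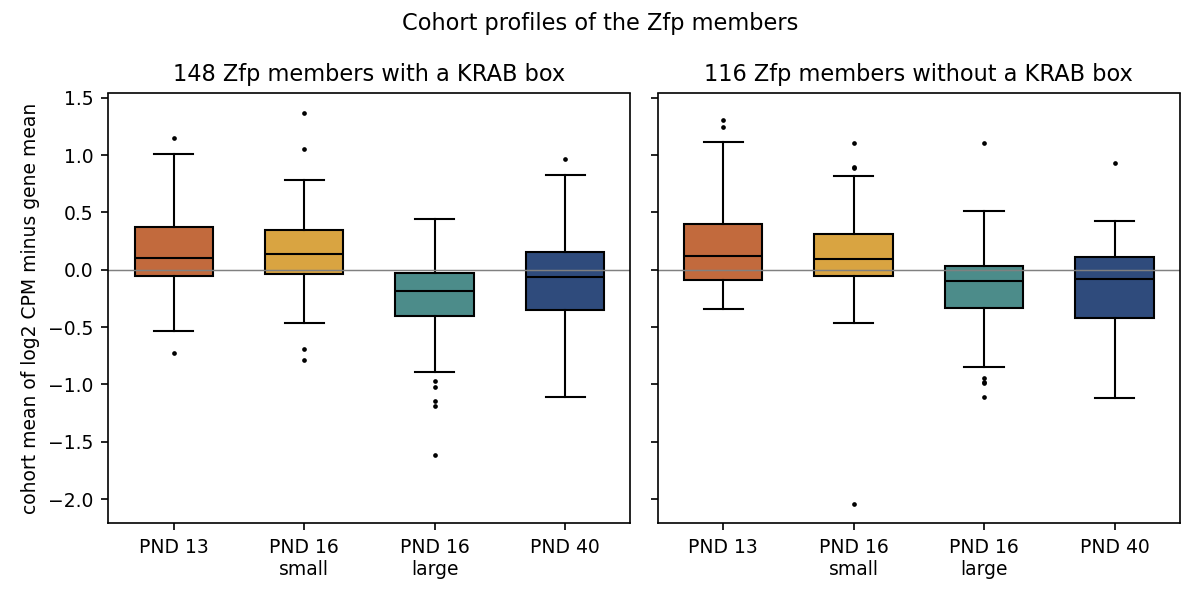
Cohort mean of log2 CPM minus the mean over the 4 cohorts, for 148 Zfp members with a KRAB box (left) and 116 without (right); boxes span the quartiles with the median as a line, whiskers reach the last value within 1.5 box heights, and points lie beyond. The KRAB medians are 0.11 at PND 13, 0.14 at PND 16 small, -0.19 at PND 16 large and -0.06 at PND 40, and those without the box 0.12, 0.09, -0.10 and -0.08.

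By class, 27 KRAB members (18.2%) were lower and 7 (4.73%) higher in PND 40 vs. PND 13, and 34 members without the box (29.3%) were lower and 1 (0.862%) higher, beside 12.6% and 6.31% of all genes tested. The median log2 fold changes were -0.18 and -0.23. In PND 16 large vs. PND 16 small the medians were -0.38 for KRAB members and -0.19 for the others. There 22 KRAB members (14.9%) and 21 without the box (18.1%) were called lower, beside 4.76% of all genes tested. In PND 40 vs. PND 16 large the medians were 0.17 and 0.02. The difference between the classes was not tested. Among related zinc finger families, 13 of 34 Zbtb genes (38.2%) were lower and 1 (2.94%) higher at PND 40 than at PND 13. Of 17 Zscan and Zkscan genes 4 (23.5%) were lower and none higher. The shares of all genes tested in PND 40 vs. PND 13 were 12.6% and 6.31%.

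Of the partners through which KRAB proteins act, 18 genes were listed, and 2 (11.1%) were called lower in PND 40 vs. PND 13, a share near the 12.6% of all genes tested. Mta2, a subunit of the NuRD deacetylase complex, had a log2 fold change of -1.997 (SE 0.30, edgeR adjusted p = 0.000294) and Hdac1, a histone deacetylase, one of -1.13 (SE 0.38, edgeR adjusted p = 0.0371). Trim28, the KRAB corepressor, had a log2 fold change of 0.06 (SE 0.08) and Setdb1 one of 0.19 (SE 0.06), and neither was called. In PND 40 vs. PND 16 large none of the 18 was called by edgeR, and 3 had an unadjusted p under 0.05.

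Members with known roles were grouped by lists, whose counts are small and stand beside the 12.6% of all genes tested that were lower and the 6.31% that were higher at PND 40 than at PND 13. Of 5 members that repress retroelements or keep imprints, none was called in PND 40 vs. PND 13. Zfp445, which maintains imprints, was 107 ± 5.89 CPM at PND 13 and 74.5 ± 3.65 CPM at PND 40 with no overlap, a log2 fold change of -0.52 (SE 0.09, edgeR adjusted p = 0.000915) that stayed under the 1.5-fold criterion. Zfp568, which represses a placental Igf2 transcript, was 160 ± 5.81 CPM at PND 13, 198 ± 24.3 CPM at PND 16 small, 134 ± 9.85 CPM at PND 16 large and 116 ± 6.92 CPM at PND 40, also under the fold criterion against PND 13. Zfp932 and Zfp708, which bind endogenous retroviral elements, shared 45.2% and 100% of their stretches with other genes, and their log2 fold changes were -0.13 (SE 0.20) and 0.21 (SE 0.47).

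Of 7 regulators of development and pluripotency, 3 (42.9%) were lower at PND 40 than at PND 13, against 12.6% of all genes tested. These were Zfp281, Zfp521 and Zfp217, a subunit of corepressor complexes with CtBP and CoREST. The Zfp521 call was lost without the 3 pools of high granulosa markers. Zfp217 was 195, 198 and 202 CPM at PND 13, 246, 167 and 200 CPM at PND 16 small, 125, 131 and 135 CPM at PND 16 large and 104, 102 and 106 CPM at PND 40. It stepped down from non-competent to PND 16 large to PND 40 without overlap, with a log2 fold change of -0.93 (SE 0.11, edgeR adjusted p = 5.84e-05) between the ends. Zfp42, also called Rex1, was 0.474 to 2.25 CPM in all pools, and Zfp296, a reprogramming factor, was 118 ± 9.37 CPM at PND 13 and 163 ± 11.3 CPM at PND 40, under the fold criterion.

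Of 11 promoter and chromatin factors 3 (27.3%) were lower at PND 40 than at PND 13, against 12.6% of all genes tested, and all 3 calls were lost without the 3 pools of high granulosa markers. Zfp644, a partner of the methyltransferases G9a and GLP, was 86.5, 76.0 and 93.1 CPM at PND 13 and 45.5, 58.2 and 51.5 CPM at PND 40. Zfp384 was 1.67-fold lower, with 13.1% of its stretches in another gene, and Zfp609, a partner of the Integrator complex, 1.59-fold lower (edgeR adjusted p = 0.00328 and 0.00216). Zfp143, which binds promoters at the anchors of chromatin loops, differed by a log2 fold change of 0.04 (SE 0.09), and Zfp410, the activator of Chd4, by -0.33 (SE 0.15), and neither was called.

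Of 9 RNA and ribosome factors 2 (22.2%) were lower at PND 40 than at PND 13, against 12.6% of all genes tested. These were Zfp622 and Zfp326, which links transcription to splicing. Zfp326 was 4.68, 2.93 and 5.69 CPM at PND 13 and 2.96, 1.91 and 2.17 CPM at PND 40, where 1 pool lay just above the lowest PND 13 pool, and its call was lost in 4 of 6 fits without 1 pool and without the 3 pools of high granulosa markers. Zfp598, the ubiquitin ligase that senses collided ribosomes, was 175 ± 13.8 CPM at PND 13 and 213 ± 6.23 CPM at PND 40, under the fold criterion. Zfp207, a spindle factor that loads Bub3, Zfp91, a ubiquitin ligase, and Zfp451, a SUMO ligase, were not called and had log2 fold changes of 0.09, 0.14 and 0.26.

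**Figure D4:**
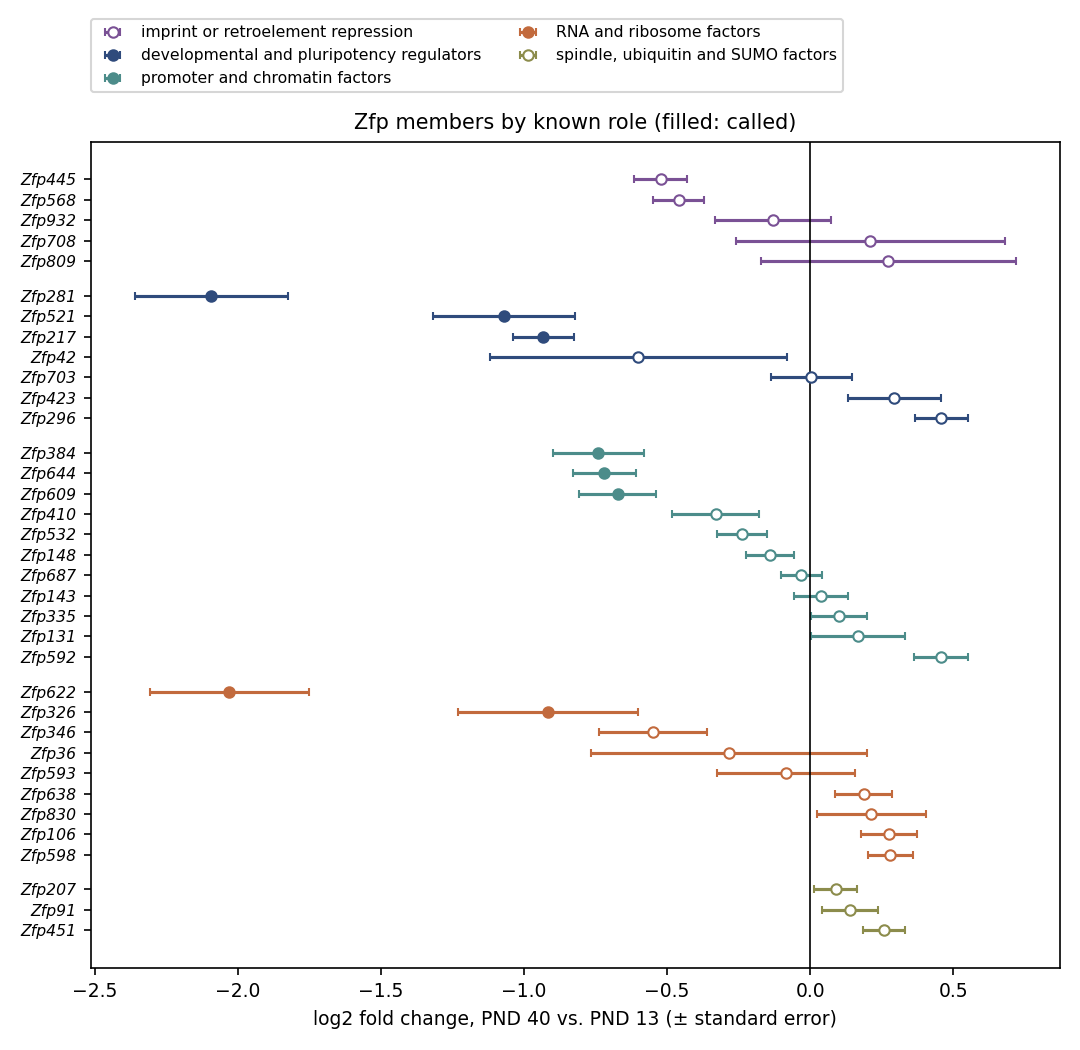
Log2 fold change of PND 40 vs. PND 13 with its standard error (bars) for 35 Zfp members in 5 lists of known roles; filled points were called by edgeR and open points were not. The called members, all lower, run from Zfp281 at -2.09 and Zfp622 at -2.03 to Zfp609 at -0.67.

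Some members held nearly the same level throughout. The smallest range of cohort means among members of at least 5 CPM on average was 0.08 on the log2 scale for Zfp449, with 53.0 CPM at PND 13, 52.4 and 53.9 CPM at PND 16 in small and large animals, and 55.4 CPM at PND 40. It was followed by Zfp758, Zfp787, Zfp414 and Zfp958, with ranges of 0.08 to 0.14. Zfp414 shares 44.0% of its stretches with another gene. Over all members the median range of cohort means was 0.65, against 0.51 for genes with the same minimum count.

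The members whose log2 CPM followed Zfp768 most closely over the 12 pools were Zfp263 (Pearson's r = 0.98), Zfp281 (0.98) and Zfp668 (0.97). Those closest to Zfp820 were Zfp957 (0.86), Zfp821 (0.85) and Zfp706 (0.82). The pools share cohort and depth, so these values only describe likeness.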

How the data were processed

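Total RNA was depleted of ribosomal RNA and sequenced from 12 oocyte pools. The authors deposited raw counts per gene, made with STAR and HTSeq on mm10 per the submitters' processing notes; versions are not given in the sources used here. Their table of log2-normalised values was not used, and 0 per-sample columns of other samples were present. Genes kept by filterByExpr (minimum count 10; 13943 genes) were scaled by TMM (factors 0.955 to 1.07) and tested with edgeR 4.0.16 (R 4.3.3), robust quasi-likelihood, in 1 model of the 4 cohorts, or 2 groups for competence. Log2 CPM used a prior count of 2. The test was run on simulated data first. DESeq2 1.42.0 and other settings were alternatives. The members and lists were chosen with earlier results of these data known. Named members were the 8 called members with the largest change in each direction (4 in lesser comparisons) at a mean of at least 1 CPM, the 8 highest per kb, the 5 flattest, those at the count threshold and those of the role lists. KRAB boxes were scored by at least 15 identities over 38 residues. The 1 symbol left out is not reported here.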

Additional observations from a re-analysis of the deposited data

Results flagged for a closer look

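In the 12 members named for competent vs. non-competent oocytes, 24 groups of 6 pools were examined for a pool far from the rest, and 3 were found. The usual rate of about 1 in 20 does not apply here. Each group joins pools of different cohorts, and the members were named for large changes. Zfp446 was 8.47 CPM in PND 13 replicate 3, against 3.98 to 5.55 CPM in the other 5 non-competent pools. Zfp820 was 11.9 CPM in PND 16 small replicate 1, against 4.22 to 6.33 CPM. Zfp947 was 5.95 CPM in PND 40 replicate 3, against 2.21 to 3.56 CPM in the other competent pools, and its call was lost without that pool.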

How the results depend on the processing

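Of 125 recounts of called members under other settings 104 stayed within 1.5 times the reported count. For PND 40 vs. PND 16 large, 21 were called by adjusted p alone (13 higher) and 21 when only those pools were fitted (12 higher), total-count scaling gave 8 higher and 4 lower in place of 6 and 5, and fits without 1 pool gave 4 to 7. Leaving out PND 16 large replicates 1, 2 and 3 gave 7, 6 and 6, and leaving out PND 40 replicates 1, 2 and 3 gave 4, 6 and 6. For PND 16 large vs. PND 16 small, 24 were called when only those pools were fitted and 20 to 57 without 1 pool. For competent vs. non-competent, 108 were called by adjusted p alone and 57 to 70 without 1 pool. For PND 16 small vs. PND 13, where none was called, DESeq2 gave 9, total counts 1, no filter 2, a stricter filter 2, and fits without 1 pool 0 to 24. Without 1 pool PND 40 vs. PND 13 gave 59 to 73, PND 16 large vs. PND 13 44 to 61 and PND 40 vs. PND 16 small 49 to 72. Without the 3 pools of high granulosa markers, a setting chosen after seeing the data that leaves 1 PND 13 pool assumed to vary like the others, PND 40 vs. PND 13 gave 41, of which 38 were lower, and PND 16 small vs. PND 13 gave 3. Total-count scaling moved the median of all genes by -0.13 in PND 16 large vs. PND 13 and -0.12 in PND 16 small vs. PND 13. A replicate block gave 63, 60, 0, 63, 8, 37 and 61 calls in the order PND 40 vs. PND 13, PND 16 large vs. PND 13, PND 16 small vs. PND 13, PND 40 vs. PND 16 small, PND 40 vs. PND 16 large, PND 16 large vs. PND 16 small and competent vs. non-competent; same-numbered pools deviated with correlations of -0.44 to 0.08, so the numbers did not pair the pools. The shares of all genes called under these settings are not given here, so the recounts describe the members only. Where a count moved, the cause was not tested. No named member reversed direction in a call. Counting depth limits members near 1 CPM.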

Other observations

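Among the genes with a Zfp symbol that missed the count minimum, 54 passed the filter for testing. In PND 40 vs. PND 13, 12.6% of all genes tested were called lower and 6.31% higher. Of the 54, edgeR called 9 (16.7%) lower and 1 (1.85%) higher. The one that rose was Zfp488, with 7, 4 and 1 counts at PND 13, 4, 2 and 3 at PND 16 small, 53, 22 and 29 at PND 16 large and 51, 59 and 59 at PND 40. Every competent pool lay above every non-competent pool. Zfp712, which fell, had 101, 108 and 90 counts at PND 13, 86, 58 and 105 at PND 16 small, 7, 33 and 39 at PND 16 large and 28, 18 and 43 at PND 40. Zfp850 had 24, 17 and 24 counts at PND 16 large and 163, 110 and 161 at PND 40 (edgeR adjusted p = 0.0372). Its counts were 67, 108 and 66 at PND 13 and 73, 55 and 2 at PND 16 small. Zfp467 had 74, 6 and 124 counts at PND 13 and 1, 100 and 5 at PND 16 small, with its 3 high values in the pools of high granulosa markers. These genes were chosen for mention after their values were seen.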
